A study of Sus scrofa with 6 samples.

Results

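The antioxidant, selenoprotein, iron and oxygen genes were followed in differentiating porcine satellite cells (PSCs), the stem cells of skeletal muscle that stop dividing and fuse into multinucleated myotubes. Members were chosen by gene symbol. They were every gene whose symbol begins with SELENO, GPX, PRDX, TXN or GST, or with SOD and a digit, together with a fixed list of genes for catalase, the NRF factors, glutathione synthesis, iron uptake and storage, oxygen sensing and NADPH oxidase. Of the 28266 genes in the table, 25322 carried an Ensembl identifier, 11804 of these were paired with a symbol, and 54 were members. A further 24 symbols of the rule were not analysed here, among them MB, FTH1, HMOX1, GCLM, GPX1, GPX3, SELENOW, SELENOP, SOD2, TXN, TXNIP and CYBA.

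The cells came from limb muscle of 3-day-old male Yorkshire pigs. A spell in an uncoated dish was used to separate them from fibroblasts, and they were differentiated in medium with horse serum. How many pigs they came from was not given in the sources used here. Group NC24h held 3 libraries taken at 24 h of differentiation, and group NC36h held 3 libraries whose labels give 48 h, where the series title and the study give 36 h. The sample titles begin with N, the letter that the study uses for cells given negative control (NC) siRNA, so both groups carried the same control siRNA, and libraries from the H19 knockdown were not used here. The labels do not say whether replicates 4, 5 and 6 of a group came from separate pigs or cultures, so the p-values measure the spread between these libraries, which may be technical.

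Cells make superoxide and hydrogen peroxide as they respire. Superoxide dismutases turn superoxide into hydrogen peroxide, and catalase, peroxiredoxins and glutathione peroxidases remove the peroxide. Peroxiredoxins are recharged by thioredoxin and thioredoxin reductase, and glutathione peroxidases by glutathione and glutathione reductase. Several of these enzymes are selenoproteins, which carry the amino acid selenocysteine at the active site. The transcription factor NRF2 (NFE2L2), held in check by KEAP1, drives many of the genes, whereas HIF1A and its prolyl hydroxylases (EGLN1, EGLN3) answer to oxygen.

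Levels are given as FPKM, a fragment number corrected for gene length and library size. Fragment numbers were recovered from the FPKM values for genes above 0 in at least 3 libraries. Their sums per library lay between 16338011 and 16862874 in NC24h and between 17968744 and 21839927 in NC36h. In the 6 libraries the differentiated muscle markers summed to 5062, 4255 and 2279 FPKM in NC24h replicates 4, 5 and 6 and to between 11692 and 13088 in NC36h, and the cell cycle markers summed to 37.9, 50.04 and 96.0 in NC24h and to between 12.6 and 14.8 in NC36h. NC24h replicate 6 therefore stood apart, lowest in muscle markers and highest in cell cycle markers, and the results in which it departed most are also given without it. One label names endometrium as the source of the RNA. However, EPCAM did not exceed 0.0370 FPKM, and KRT8 and PGR were listed at 0 in every library. CDH1, the most abundant of these markers, rose from a mean of 0.318 to 3.63 FPKM (log2 change 1.79) and did not exceed 4.36. DES, the muscle intermediate filament gene, lay between 1452 and 3367. Of the other cell types, fibroblast markers summed to between 823 and 1029 FPKM over the 6 libraries (COL1A2, DCN and LUM fell, with log2 changes of -0.62, -1.48 and -1.19, COL3A1 rose by 0.87, and PDGFRA did not exceed 0.680 FPKM), leukocyte markers to between 4.82 and 6.41 in NC24h and 1.92 and 3.14 in NC36h with PTPRC listed at 0, endothelial markers to at most 1.67, erythroid markers to at most 0.853 with HBB listed at 0, adipocyte markers to at most 0.0773 and smooth muscle markers to at most 7.74. The part of these cells in the results was not tested. In bulk RNA, fewer cells that make a transcript and less of it per cell cannot be told apart.

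Between NC24h and NC36h, 18 members fell and 6 rose among the 45 members with a mean FPKM of at least 1, the level from which genes were tested. Calls were made with limma on log2(FPKM + 1) at an adjusted p under 0.05 over all 14060 genes tested. Of all genes tested, 34.4% fell and 16.5% rose, 50.9% in all, and the members called were 40.0%, 13.3% and 53.3%, close to that background. Without NC24h replicate 6, 18 of the 46 members then tested fell and 8 rose, beside 4816 and 2452 of the 13914 genes then tested. In 32 members no NC24h library overlapped the NC36h range, 24 lower and 8 higher in NC36h. They were 71.1% of the members tested, and the same held for 63.6% of all genes, 42.6% lower and 21.0% higher. The median log2 change was -0.22 for the members tested and -0.16 for all genes tested, and the latter was -0.01 with median-ratio scaling, which divides a library by the median of its gene-wise ratios to the mean library. Changes are therefore also given relative to -0.16 for the genes that changed most. With median-ratio scaling 11 members fell and 9 rose, and of all 14060 genes tested 3136 fell and 3367 rose. Counts per role and per list below stand beside these values for all genes. The members called had a median absolute log2 change of 0.47, where that of all genes called was 0.56, and 3 of them (CAT, NOX4 and EGLN3) changed by at least 1, which 8.36% of all genes did. Summed over the 54 members, the FPKM made up 0.463%, 0.457% and 0.451% of the library in the NC24h replicates (4, 5 and 6 in turn), against 0.413%, 0.407% and 0.406% in NC36h.

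**Figure D1:**
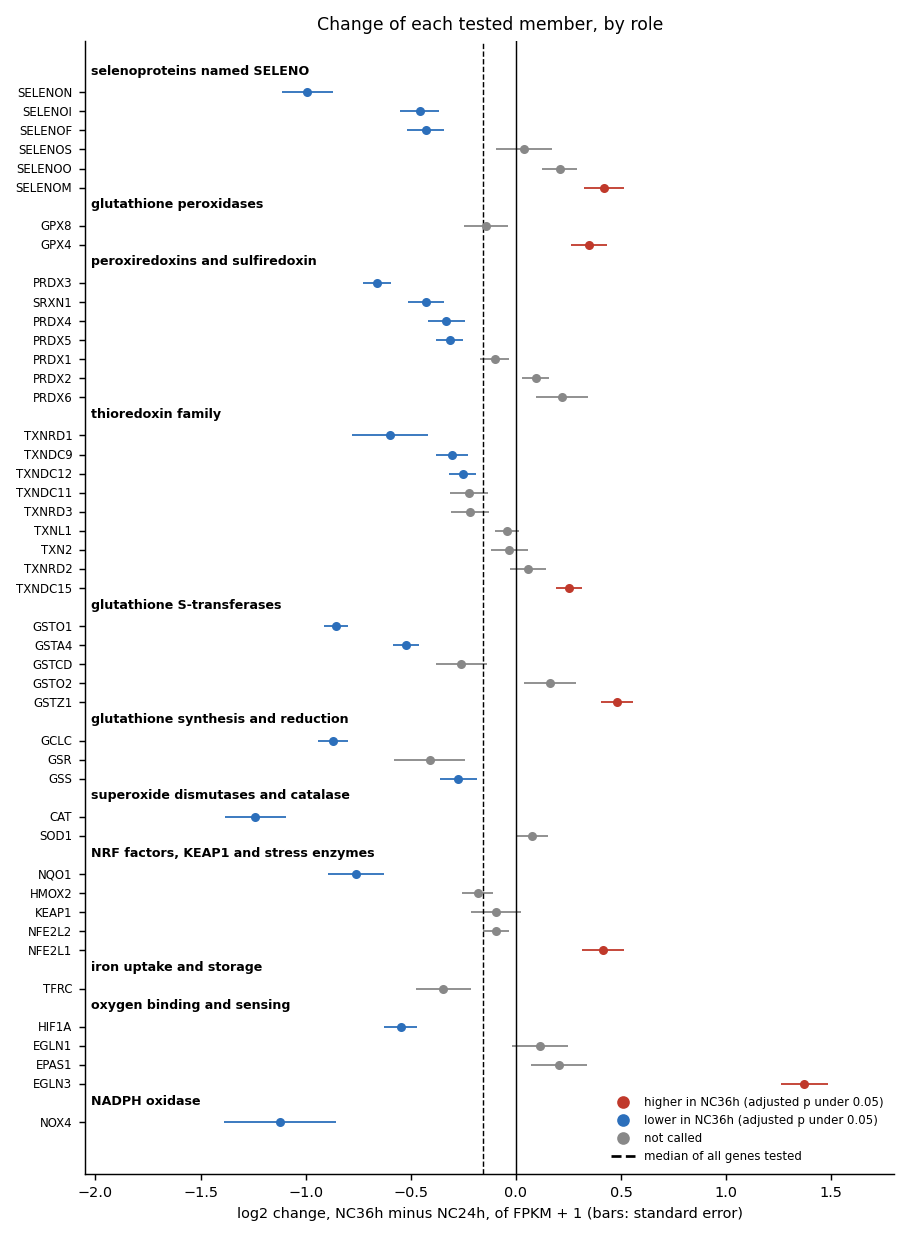
Log2 change of FPKM + 1 from NC24h to NC36h for the 45 members tested, grouped by role, with the standard error as bars and the median of all genes tested (-0.16) as a dashed line. EGLN3 lies farthest to the right at 1.37 and CAT farthest to the left at -1.24, and every role with at least 4 tested members except the peroxiredoxins holds both red and blue points.

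The members covered a wide range of levels per length. In 6 of them the mean FPKM over all libraries was at least 100, in 28 it lay between 10 and 100, and in 11 below 10. TFRC, the transferrin receptor, had the highest mean at both times, followed in NC24h by SOD1, GPX4, PRDX2 and NFE2L1 and in NC36h by GPX4, SOD1, NFE2L1 and PRDX2. SOD1 and GPX4 did not differ beyond their spread in NC24h, at 193.9 ± 16.1 and 182.0 ± 14.9 FPKM (SD, n = 3 each). SELENON moved furthest among the abundant members, from rank 6 in NC24h to rank 15 in NC36h. At the lower end, KEAP1, EPAS1, GSTCD and GSTO2 had means between 1 and 3 FPKM in both groups, and their rank order rests on as few as 28 fragments in a library. The spread between libraries was larger in NC24h than in NC36h for 30 of the 45 members and for 8806 of all 14060 genes tested. The median coefficient of variation was 8.80% against 5.55% for the members, and for all genes tested the medians were 10.9% and 8.13%.

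**Figure D2:**
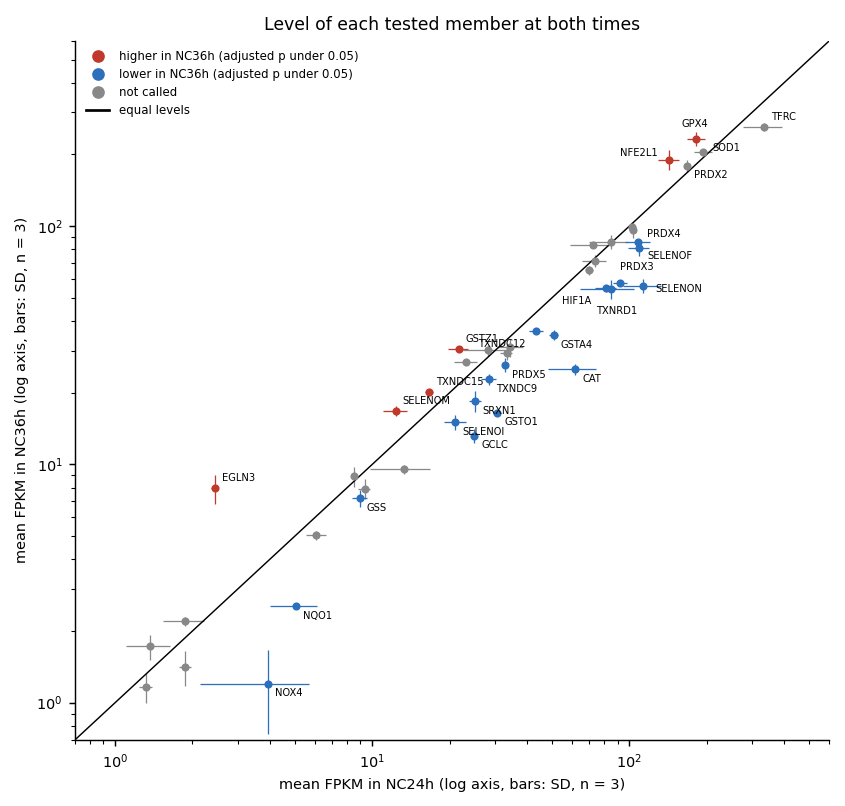
Mean FPKM of each tested member in NC24h (horizontal) and NC36h (vertical) on log axes, with the SD of 3 libraries as bars and a line of equal levels. EGLN3 lies well above the line at a low level, CAT, GCLC, GSTO1, NQO1 and NOX4 lie below it, and the most abundant members lie near it.

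Catalase (CAT), the peroxisomal enzyme that splits hydrogen peroxide into water and oxygen, showed the largest fall of any member on the log2(FPKM + 1) scale, whereas by the plain ratio of the means NOX4 fell further (0.307 against 0.409). CAT (ENSSSCG00000013302) spans 26493664 to 26533881 of chromosome 2 in the Sscrofa11.1 build, which all positions here refer to. Replicates 4, 5 and 6 of NC24h had 51.2, 56.9 and 76.1 FPKM, and those of NC36h 26.1, 23.7 and 25.5, the order kept for every gene that follows. All NC36h libraries lay below the lowest NC24h library, and replicate 6 was the highest of its group. Its log2 change was -1.24 (SE, the standard error, 0.14, limma adjusted p = 0.00133), or -1.08 relative to the median of all genes, and also -1.08 without NC24h replicate 6. SOD1, the cytosolic copper and zinc superoxide dismutase, did not pass the test. It had 206.9, 198.8 and 175.9 FPKM in NC24h and 204.0, 202.3 and 206.0 in NC36h. The groups overlapped, and the log2 change of 0.08 had a 95% interval from -0.10 to 0.25. SOD3, the extracellular enzyme, was not tested, with 12 fragments in all of NC24h and 8 in NC36h.

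Of the 7 peroxiredoxin and sulfiredoxin genes, all tested, 4 fell, 0 rose and 3 were not called, where 34.4% of all genes fell and 16.5% rose. With limma, 4 had a lower and 0 a higher level at an unadjusted p under 0.05, limma voom on the recovered fragments also called 4 lower and 0 higher, and median-ratio scaling called 2 lower and 2 higher. Of all 14060 genes, limma voom called 4906 lower and 2341 higher. The share of all genes at an unadjusted p under 0.05 was not determined. The members that fell reside or act in different compartments. PRDX3, the mitochondrial peroxiredoxin (ENSSSCG00000010682, chromosome 14 from 129079050 to 129090790), fell most. Its FPKM was 87.0, 91.3 and 98.7 in NC24h and 58.7, 58.6 and 56.6 in NC36h. The groups were far apart compared with their spread, with a log2 change of -0.66 (SE 0.07, limma adjusted p = 0.000951), or -0.50 relative to the median of all genes. SRXN1, the sulfiredoxin that repairs over-oxidised peroxiredoxins, had 23.9, 24.8 and 26.5 FPKM in NC24h and 17.7, 17.1 and 20.5 in NC36h, a log2 change of -0.43 (limma adjusted p = 0.0072) with no overlap.

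PRDX4, the peroxiredoxin of the endoplasmic reticulum, had 99.2, 103.6 and 122.2 FPKM in NC24h and 88.0, 83.0 and 85.5 in NC36h. The groups did not overlap and its log2 change was -0.33 (limma adjusted p = 0.0191). The call of PRDX4 was lost without NC36h replicate 5 (log2 change -0.31, limma adjusted p = 0.0722), without NC36h replicate 6 (-0.33, 0.0511) and with median-ratio scaling (-0.16, 0.129), the range over its alternatives being 0.0118 to 0.129. PRDX5 fell by 0.32 on the log2 scale, a call that was lost with median-ratio scaling (-0.15, limma adjusted p = 0.119, the highest of its alternatives, which began at 0.00671). PRDX2, the most abundant of the family, had 167.8, 168.9 and 166.3 FPKM in NC24h and 176.5, 191.2 and 170.1 in NC36h. It lay higher in each NC36h library, by 0.09 on the log2 scale (95% interval -0.06 to 0.25), and passed the test only with median-ratio scaling (0.27, limma adjusted p = 0.0199, range 0.0199 to 0.621). PRDX1, the other abundant cytosolic peroxiredoxin, had a log2 change of -0.10 (95% interval -0.27 to 0.07), which was 0.07 with median-ratio scaling. PRDX6, which uses glutathione, had 62.2 and 67.2 FPKM in NC24h replicates 4 and 5, 87.4 in replicate 6 and between 81.6 and 84.9 in NC36h. Its log2 change of 0.22 was not called (limma adjusted p = 0.179), but it was called with median-ratio scaling (0.39, limma adjusted p = 0.0273) and without NC24h replicate 6 (0.36, 0.00348), in a range from 0.00348 to 0.431.

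Among the 4 glutathione peroxidases with a row, GPX4 rose, GPX8 was not called and GPX2 and GPX6 were too low to test. GPX4, a selenoprotein that reduces lipid peroxides in membranes and guards cells against ferroptosis (ENSSSCG00000024052, chromosome 2 from 77321568 to 77323931), had 183.3, 166.5 and 196.3 FPKM in NC24h and 225.3, 220.3 and 249.4 in NC36h. Every NC36h library lay above every NC24h library, with a log2 change of 0.35 (SE 0.09, limma adjusted p = 0.0144), or 0.50 relative to the median of all genes. The call was lost without NC24h replicate 5 (0.29, limma adjusted p = 0.0533, range 0.0033 to 0.0533). The gene length behind its FPKM was recovered as 290 bases, so its rank among the members rests on a short gene model. GPX8, a membrane enzyme of the endoplasmic reticulum, had a log2 change of -0.14 (95% interval -0.39 to 0.10), which was 0.03 with median-ratio scaling. GPX2 had 8 fragments in NC24h and 15 in NC36h, and GPX6 was listed at 0 in every library.

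In the 6 tested selenoproteins of the SELENO series, 3 fell, 1 rose and 2 were not called (2 lower and 2 higher with median-ratio scaling), and SELENOV was listed at 0. SELENON, a calcium-sensing protein of the endoplasmic reticulum whose loss causes an inherited muscle disease (ENSSSCG00000003554, chromosome 6 from 83246934 to 83262748), fell most. It had 99.6, 105.1 and 135.0 FPKM in NC24h and 58.2, 51.6 and 58.1 in NC36h. No library overlapped, and the log2 change was -0.99 (SE 0.12, limma adjusted p = 0.0016), -0.84 relative to the median of all genes and -0.86 without NC24h replicate 6. SELENOI, an enzyme of phosphatidylethanolamine synthesis, had 23.1, 21.03 and 19.0 FPKM in NC24h and 16.2, 13.9 and 15.0 in NC36h, a log2 change of -0.46 (limma adjusted p = 0.00758). Its call was lost with median-ratio scaling (-0.29, limma adjusted p = 0.0514, range 0.00356 to 0.0514). SELENOF, which binds the enzyme that checks glycoprotein folding, had 99.8, 107.3 and 119.5 FPKM in NC24h and 87.1, 76.6 and 78.1 in NC36h, the highest mean of the series over all 6 libraries, though SELENON was higher in NC24h and SELENOS in NC36h. Its log2 change was -0.43 (limma adjusted p = 0.00759) with no overlap.

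SELENOM, a thioredoxin-like protein of the endoplasmic reticulum, went the other way and rose by 0.42 on the log2 scale (limma adjusted p = 0.0104), from 12.3 ± 1.35 to 16.8 ± 0.873 FPKM (SD, n = 3 each). SELENOO, a mitochondrial enzyme that adds AMP to proteins, was higher in each NC36h library, with a log2 change of 0.21 (limma adjusted p = 0.0741), and was called with median-ratio scaling (0.38, 0.0179) and after quantile normalization (0.31, 0.0278), in a range from 0.0179 to 0.163. SELENOS, of the pathway that clears misfolded proteins, had 94.2, 91.8 and 67.7 FPKM in NC24h and between 80.8 and 92.3 in NC36h. Its log2 change of 0.04 (95% interval -0.28 to 0.36) became -0.11 without NC24h replicate 6 and -0.01 without NC36h replicate 4. Over the 10 tested members known to carry selenocysteine, which add GPX4, TXNRD1, TXNRD2 and TXNRD3 to the SELENO series, 2 rose, 4 fell and 4 were not called. This grouping was made after the values were seen. In the list of selenocysteine insertion factors and other selenoproteins, 8 genes were tested, 1 rose and 1 fell (3 and 1 with median-ratio scaling). TRNAU1AP, which binds the selenocysteine tRNA, had a log2 change of 0.43 (limma adjusted p = 0.00499), and SECISBP2L, related to the protein that reads the selenocysteine signal of the mRNA, one of -0.77 (limma adjusted p = 0.000966).

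**Figure D3:**
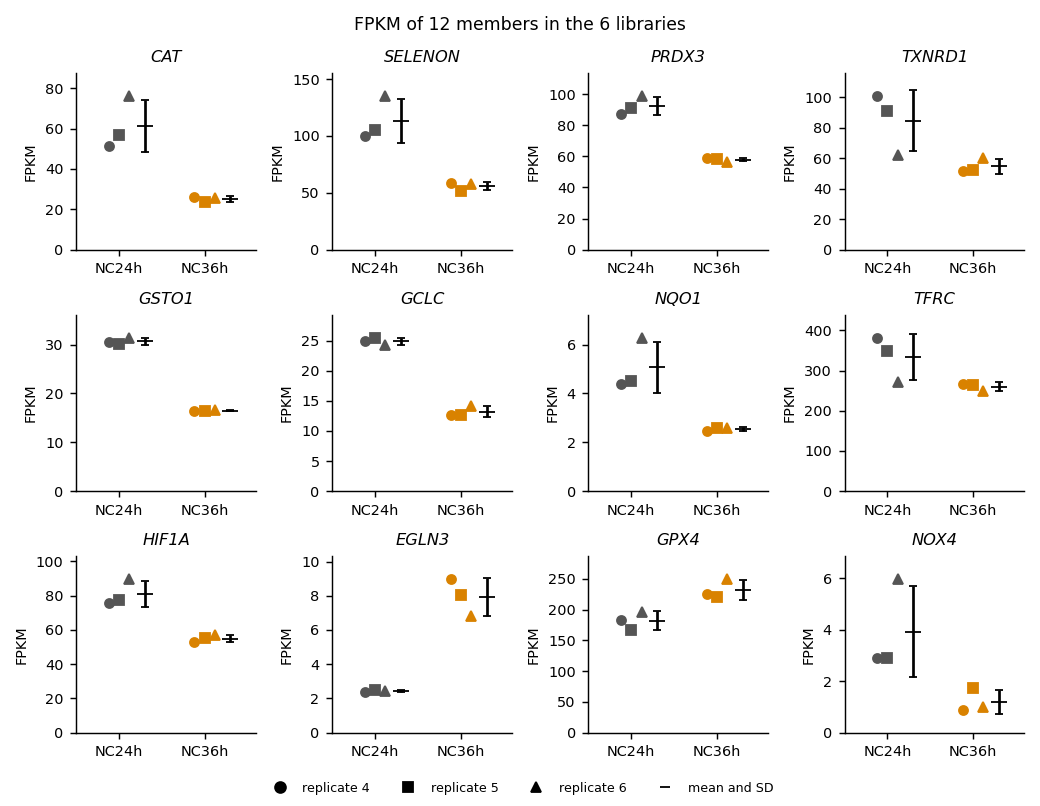
FPKM of 12 members in each of the 6 libraries, with the symbol shape marking the replicate and the mean and SD beside the points, on axes that start at 0. The groups are apart in all 12 panels, but in TXNRD1 and TFRC the NC24h replicate 6 lies near the NC36h libraries, at 61.9 and 270.5 FPKM, and in CAT, SELENON, NQO1 and NOX4 it lies farthest from them.

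The thioredoxin family had 9 tested members, of which 3 fell, 1 rose and 5 were not called (0 lower and 1 higher with median-ratio scaling). TXNRD1, the cytosolic thioredoxin reductase and a selenoprotein (ENSSSCG00000000843, chromosome 5 from 80170334 to 80213889), had 100.5, 91.2 and 61.9 FPKM in NC24h and 51.4, 51.9 and 60.2 in NC36h. The groups did not overlap, but NC24h replicate 6 lay close to the highest NC36h library. Its log2 change was -0.60 (SE 0.18, limma adjusted p = 0.0293), and -0.81 without NC24h replicate 6 (limma adjusted p = 0.00109). The call was lost without NC24h replicate 4 (-0.46, limma adjusted p = 0.068), NC24h replicate 5 (-0.53, 0.0911), NC36h replicate 4 (-0.56, 0.0872) or NC36h replicate 5 (-0.57, 0.0907), and with median-ratio scaling (-0.43, 0.112), in a range from 0.00109 to 0.112. TXNRD2, the mitochondrial reductase, had a log2 change of 0.06 (95% interval -0.15 to 0.26). The ratio of TXNRD1 to TXNRD2 was 11.8, 10.7 and 7.24 in NC24h and 5.68, 6.48 and 6.18 in NC36h, so the cytosolic enzyme was the more abundant transcript in every library. TXNRD3 was -0.22 on the log2 scale (limma adjusted p = 0.0823).

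TXNDC9, a thioredoxin-like partner of a protein-folding chaperonin, had 30.5, 28.0 and 26.6 FPKM in NC24h and 21.6, 24.1 and 22.6 in NC36h, a log2 change of -0.30 (limma adjusted p = 0.0158). Its call was lost without NC36h replicate 4 (-0.27, limma adjusted p = 0.0535), with median-ratio scaling (-0.14, 0.239) and after quantile normalization (-0.21, 0.0708), in a range from 0.00937 to 0.239. TXNDC12, a thioredoxin-like protein of the endoplasmic reticulum, had 46.2, 42.7 and 41.3 FPKM in NC24h and 37.1, 36.2 and 35.3 in NC36h, a log2 change of -0.25 (limma adjusted p = 0.0169). That call was lost without NC24h replicate 5 (-0.26, limma adjusted p = 0.0504), NC36h replicate 5 (-0.25, 0.0626) or NC36h replicate 6 (-0.24, 0.051), and with median-ratio scaling (-0.08, 0.384), in a range from 0.00949 to 0.384. TXNDC15 rose by 0.25 (limma adjusted p = 0.0148), and lost its call without NC36h replicate 5 (0.24, 0.0644, range 0.00295 to 0.0644). TXNL1, the most abundant of the family, had 104.7, 104.6 and 98.1 FPKM in NC24h and 97.4, 102.0 and 99.3 in NC36h. The groups overlapped, with a log2 change of -0.04 (95% interval -0.18 to 0.09), which turned to 0.13 with median-ratio scaling. TXN2, the mitochondrial thioredoxin, had a log2 change of -0.03 (95% interval -0.25 to 0.18), which was 0.14 with median-ratio scaling and 0.05 without NC24h replicate 6, and TXNDC11 one of -0.22 (limma adjusted p = 0.0756). TXNL4B had 121 fragments in NC24h and 185 in NC36h, just below the level for testing, and TXNDC8 had 1 and 2.

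Of the 5 tested glutathione S-transferases, which attach glutathione to reactive compounds, 2 fell, 1 rose and 2 were not called. GSTO1 (ENSSSCG00000022351, chromosome 14 from 115206434 to 115216624), which also reduces dehydroascorbate, had the lowest adjusted p of all the members. Its FPKM was 30.5, 30.0 and 31.4 in NC24h and 16.4, 16.4 and 16.5 in NC36h. The libraries of each group lay close together, and the log2 change was -0.86 (SE 0.06, limma adjusted p = 0.000586), or -0.70 relative to the median of all genes. GSTO2, the gene of the related omega enzyme, had a log2 change of 0.16 (95% interval -0.13 to 0.46) from 28 or more fragments in each library. GSTA4, which clears the lipid peroxidation product 4-hydroxynonenal, had 49.1, 52.8 and 50.3 FPKM in NC24h and 36.8, 34.0 and 34.2 in NC36h, a log2 change of -0.52 (limma adjusted p = 0.00146). GSTZ1, an enzyme of tyrosine breakdown, rose without overlap. It had 22.8, 22.7 and 19.5 FPKM in NC24h and 31.2, 30.3 and 30.2 in NC36h, a log2 change of 0.48 (limma adjusted p = 0.00335). GSTCD was -0.26 (limma adjusted p = 0.111) and was called only by limma voom on the recovered fragments (-0.41, adjusted p = 0.0498, range 0.0498 to 0.424). GSTM3 had 18 fragments in NC24h and 10 in NC36h, and GSTT4 was listed at 0.

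The genes that make and recycle glutathione were tested in 3 members, and 2 of them fell. GCLC, the catalytic subunit of the enzyme for the rate-limiting step of glutathione synthesis (ENSSSCG00000001488, chromosome 7 from 27209565 to 27253535), had 24.9, 25.5 and 24.3 FPKM in NC24h and 12.7, 12.7 and 14.2 in NC36h. The lowest NC24h library was well above the highest NC36h library, and the log2 change was -0.87 (SE 0.07, limma adjusted p = 0.000692), or -0.71 relative to the median of all genes. GSS, the synthase of the next step, had 8.37, 9.60 and 8.85 FPKM in NC24h and 7.91, 6.88 and 6.89 in NC36h. Its log2 change of -0.27 (limma adjusted p = 0.0391) lost its call without NC24h replicate 5 (-0.23, 0.127), NC24h replicate 6 (-0.28, 0.0524), NC36h replicate 5 (-0.24, 0.132) or NC36h replicate 6 (-0.24, 0.106), without the FPKM filter (-0.27, 0.0614), and with median-ratio scaling (-0.12, 0.294) or quantile normalization (-0.10, 0.417), in a range from 0.0236 to 0.417. GSR, glutathione reductase, had 10.2, 12.5 and 17.1 FPKM in NC24h and between 9.06 and 9.92 in NC36h. Its groups did not overlap, but the spread in NC24h was wide and the log2 change of -0.41 was not called (limma adjusted p = 0.0785). GSR was called without NC24h replicate 4 (-0.57, limma adjusted p = 0.0177, range 0.0177 to 0.223), whereas without NC24h replicate 6, the highest of its group, the change was -0.23 (0.101).

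Of the NRF factors and the stress enzymes, NFE2L1 rose, NQO1 fell and NFE2L2, KEAP1 and HMOX2 were not called. NFE2L1 (NRF1), a factor of the endoplasmic reticulum that drives proteasome genes (ENSSSCG00000017525, chromosome 12 from 24303381 to 24316765), had 154.0, 145.4 and 127.7 FPKM in NC24h and 209.1, 187.1 and 173.5 in NC36h. The groups did not overlap and its log2 change was 0.41 (SE 0.10, limma adjusted p = 0.0137), or 0.57 relative to the median of all genes and 0.34 without NC24h replicate 6. NFE2L2 (NRF2) had a log2 change of -0.10 (95% interval -0.24 to 0.05), which was 0.08 with median-ratio scaling. The ratio of NFE2L1 to NFE2L2 was 2.14, 2.08 and 1.90 in NC24h and 3.36, 2.88 and 2.54 in NC36h. KEAP1 had a mean of 1.32 FPKM in NC24h and 1.17 in NC36h, with a log2 change of -0.10 (95% interval -0.38 to 0.19) that was 0.04 with quantile normalization. HMOX2, the constitutive heme oxygenase, was -0.18 (limma adjusted p = 0.0735).

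NQO1, a quinone reductase and a classic NRF2 target (ENSSSCG00000002754, chromosome 6 from 17292962 to 17302593), had 4.40, 4.51 and 6.28 FPKM in NC24h and 2.47, 2.56 and 2.59 in NC36h. Its log2 change was -0.76 (SE 0.13, limma adjusted p = 0.00446), from 426 fragments in NC24h and 261 in NC36h, and it was -0.62 without NC24h replicate 6. Among 6 members taken here as NRF2 targets, NQO1, GCLC, TXNRD1 and SRXN1 fell and GSR and PRDX1 were not called, where 34.4% of all genes fell. These 6 were put together after the values were seen. With median-ratio scaling the call of TXNRD1 was lost (limma adjusted p = 0.112). Of the 13 tested genes in the list of other NRF2 targets, 6 fell, 2 rose and 5 were not called, with a median log2 change of -0.21, and with median-ratio scaling 3 were lower and 2 higher. EPHX1, an epoxide hydrolase, had a log2 change of -1.03 (limma adjusted p = 0.00116), SLC7A11, the cystine carrier that supplies glutathione synthesis, one of -0.89 (limma adjusted p = 0.00697), and TKT, transketolase, one of -0.46 (limma adjusted p = 0.0125). The value for SLC7A11 rests on few fragments, 121 in NC24h and 60 in NC36h, with 13 in the lowest library. In the list of other redox enzymes 19 genes were tested, 10 fell and 4 rose, and with median-ratio scaling 6 were lower and 6 higher. Beside these 2 lists, 34.4% of all genes tested fell and 16.5% rose. With median-ratio scaling 3136 of all 14060 genes were lower and 3367 higher. IDH2, which makes NADPH in mitochondria, had a log2 change of 0.98 (limma adjusted p = 0.00123), IDH1, which makes it in the cytosol, one of -0.94 (limma adjusted p = 0.00601), and QSOX1, a secreted thiol oxidase, one of -0.86 (limma adjusted p = 0.00679). Without NC24h replicate 6 the change of IDH1 was -0.73 and that of QSOX1 -0.68, and both were still called.

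TFRC, which brings transferrin-bound iron into the cell (ENSSSCG00000011848, chromosome 13 from 133976765 to 133997554), had 381.8, 349.3 and 270.5 FPKM in NC24h and 267.0, 264.9 and 248.2 in NC36h. The groups did not overlap, yet NC24h replicate 6 lay close to the highest NC36h library. Its log2 change of -0.35 (SE 0.13) was not called (limma adjusted p = 0.0604). TFRC was called without NC24h replicate 6 (-0.49, limma adjusted p = 0.00195) and with quantile normalization (-0.39, 0.043), in a range from 0.00195 to 0.356. FTL, the ferritin light chain, was listed at 0 in every library, and the handling of reads shared between gene copies is not stated, so nothing about its level can be read from this value. Of the 17 tested genes in the list of other iron and heme genes, 8 fell and 0 rose, with a median log2 change of -0.20. Over all genes tested, 34.4% fell and 16.5% rose, with a median of -0.16. At an unadjusted p under 0.05, limma gave 9 lower and 1 higher, limma voom on the recovered fragments called 8 lower and 0 higher, and median-ratio scaling called 5 lower and 2 higher. Of all 14060 genes, limma voom called 4906 lower and 2341 higher. The share of all genes at an unadjusted p under 0.05 was not determined. ABCB10, a mitochondrial transporter needed for heme synthesis, had a log2 change of -1.44 (limma adjusted p = 0.00064), and PCBP2, an RNA-binding protein that also carries iron, one of -0.85 (limma adjusted p = 0.000951).

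EGLN3, an oxygen-dependent prolyl hydroxylase that marks HIF proteins for destruction, showed the largest rise of any member. The gene (ENSSSCG00000001963, chromosome 7 from 65805513 to 65833536) had 2.38, 2.52 and 2.41 FPKM in NC24h and 8.97, 8.04 and 6.80 in NC36h, from 400 fragments in NC24h and 1601 in NC36h. Every NC36h library was more than 2-fold above every NC24h library, and NC24h replicate 6 did not stand apart here. Its log2 change was 1.37 (SE 0.11, limma adjusted p = 0.000692), 1.53 relative to the median of all genes and 1.37 without NC24h replicate 6. The plain ratio of the group means was 3.26. HIF1A, the oxygen-regulated transcription factor subunit (ENSSSCG00000005096, chromosome 1 from 190625436 to 190673926), fell. It had 75.9, 77.4 and 89.6 FPKM in NC24h and 52.9, 55.1 and 56.7 in NC36h, a log2 change of -0.55 (SE 0.08, limma adjusted p = 0.00239) without overlap.

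EGLN1, the main hydroxylase of this family in most cells, had 23.8 and 26.1 FPKM in NC24h replicates 4 and 5, 34.4 in replicate 6 and between 28.6 and 31.7 in NC36h. Its log2 change of 0.11 (95% interval -0.21 to 0.43) was called only without NC24h replicate 6 (0.26, limma adjusted p = 0.0239, range 0.0239 to 0.971). The ratio of EGLN1 to EGLN3 was 9.98, 10.4 and 14.3 in NC24h and 3.18, 3.75 and 4.66 in NC36h. EPAS1 (HIF2A) was low at both times, at 1.37 ± 0.261 and 1.72 ± 0.211 FPKM (SD, n = 3 each), with a log2 change of 0.20 (95% interval -0.11 to 0.52), and HIF1A exceeded it between 53.8-fold and 65.9-fold in NC24h and between 29.8-fold and 35.8-fold in NC36h. Of the 17 tested genes in the list of other oxygen-sensing genes and HIF targets, 5 rose, 5 fell and 7 were not called, and with median-ratio scaling 7 were higher and 2 lower. Among all genes tested, 16.5% rose and 34.4% fell, and with median-ratio scaling 3367 of 14060 were higher and 3136 lower. LOX, a collagen cross-linking enzyme, had a log2 change of -1.58 (limma adjusted p = 0.00273), NDRG1, a stress-response gene, one of -1.32 (limma adjusted p = 0.0105), and VEGFA, the blood vessel growth factor, one of 0.97 (limma adjusted p = 0.0192). The call of VEGFA was lost without NC24h replicate 5 (adjusted p = 0.0639), NC36h replicate 5 (0.0582) or NC36h replicate 6 (0.0611), in a range from 0.000495 to 0.0639. Without NC24h replicate 6 the changes were -1.30 for LOX, -0.98 for NDRG1 and 1.28 for VEGFA, all of them called.

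NOX4, an NADPH oxidase that makes hydrogen peroxide, was a low gene that fell (ENSSSCG00000014927, chromosome 9 from 22622105 to 22776691). It had 2.88, 2.90 and 5.96 FPKM in NC24h and 0.868, 1.73 and 1.003 in NC36h, from 323 fragments in NC24h and 123 in NC36h. The groups did not overlap, but replicate 6 was about 2-fold above the other NC24h libraries. Its log2 change was -1.12 (SE 0.27, limma adjusted p = 0.0131) and -0.84 without NC24h replicate 6 (limma adjusted p = 0.01, range 0.01 to 0.0477). Of the 7 other NADPH oxidase genes with a row, only NOX1 reached the level for testing, with a log2 change of -0.61 (limma adjusted p = 0.00472).

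**Figure D4:**
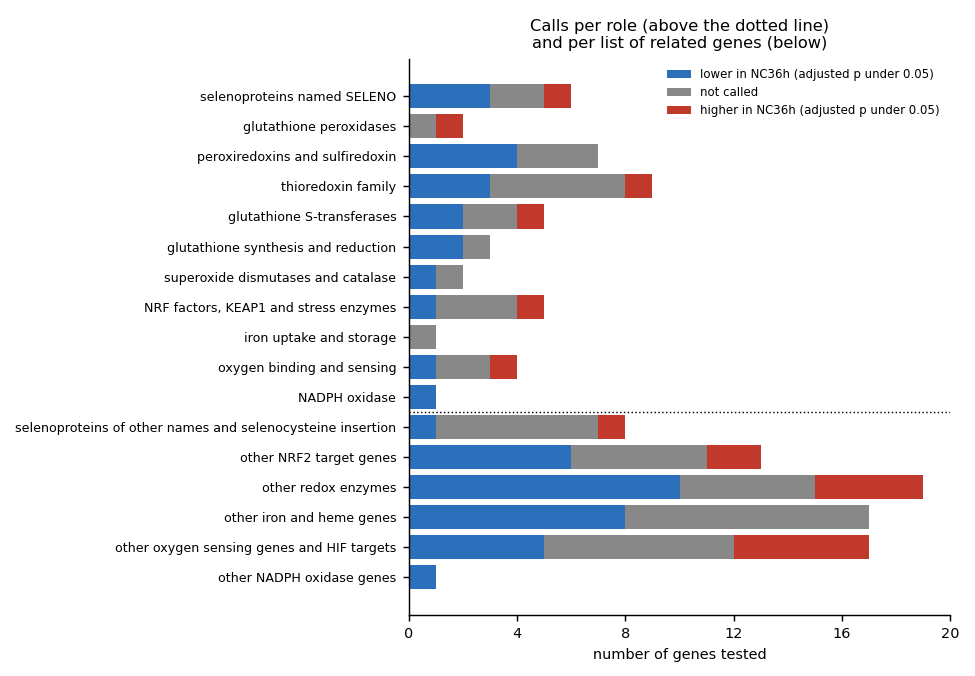
Number of tested genes that were lower, not called or higher in NC36h, for each role of the members (above the dotted line) and for each list of related genes that are not members (below it). The other iron and heme genes hold 8 lower and 0 higher (5 and 2 with median-ratio scaling), and the other oxygen-sensing genes and HIF targets hold 5 of each (2 lower and 7 higher with median-ratio scaling). Of all 14060 genes tested, 34.4% were lower and 16.5% higher (3136 and 3367 genes with median-ratio scaling).

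NC24h replicate 6 departed from replicates 4 and 5 in a gene-specific way. Its median absolute difference from their mean was 0.17 on the log2 scale over the 45 members tested, against 0.19 over all genes tested. This difference exceeded 0.3 in 10 members, and the share of all genes beyond 0.3 was not determined. In NOX4, CAT, GSR, NQO1 and SELENON it was higher than in replicates 4 and 5 and so farther from NC36h. In EGLN1 and PRDX6 it was also higher and passed the NC36h mean. In TXNRD1, TFRC and SELENOS it was lower. Of the 24 members called, replicate 6 lay farther from NC36h than replicates 4 and 5 in 14 and nearer in 10. The matching split over all genes called was not determined. The same library had the lowest muscle markers and the highest cell cycle markers of its group, as given above, and the part of that difference in these values was not tested.

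**Figure D5:**
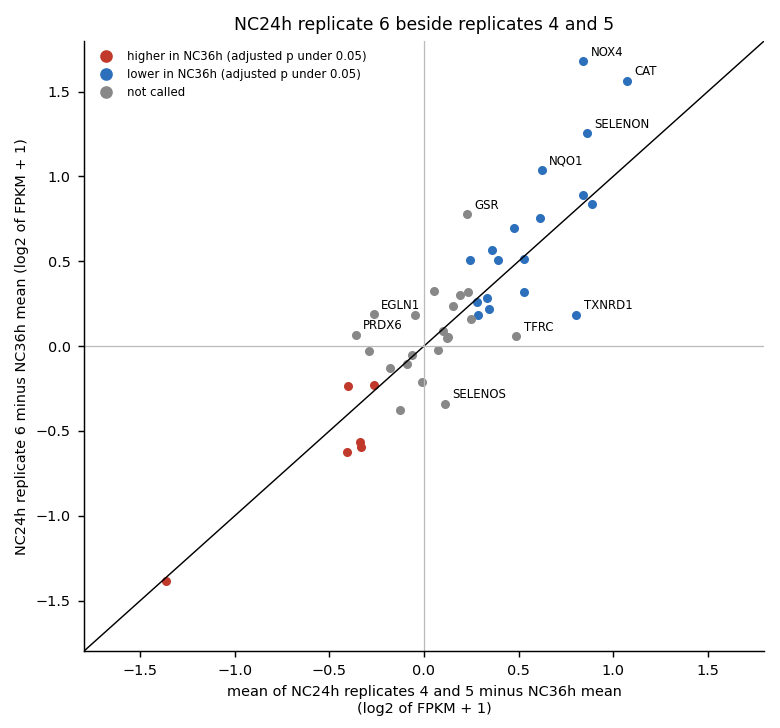
Distance of NC24h replicate 6 from the NC36h mean (vertical) against the distance of the mean of NC24h replicates 4 and 5 (horizontal), both as log2 of FPKM + 1, for the 45 members tested, with a line of equal distance. The 10 members that depart by more than 0.3 are named, with NOX4 and CAT above the line and TXNRD1 and TFRC below it.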

How the data were processed

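FPKM values of 6 libraries were analysed, as deposited by the authors, who aligned paired-end reads to Sscrofa11.1 using HISAT2, ran StringTie for assembly and HTSeq for gene-level expression. The submitters' processing notes instead list TopHat2 and Cufflinks beside HTSeq. Strandedness and the treatment of reads shared by gene copies are not given in the sources used here, and FPKM also depends on the gene length used. The 19543 genes above 0 in at least 3 libraries all gave whole fragments (within 0.03 of a whole number in every library above 0) at some gene length, taken as the shortest one that did so. Because FPKM are not counts, limma 3.58.1 (R 4.3.3, eBayes with trend, two-sided) was run on log2(FPKM + 1). Genes needed an average FPKM of 1 over the libraries, and Benjamini-Hochberg adjustment covered all 14060 of them. The fit was tested on simulated data. Changes on this scale understate those of low genes.

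Alternatives were pseudocounts of 0.1 and 0.01, no FPKM filter or one of 5, median-ratio scaling, quantile normalization, a replicate block, omission of each library, and limma voom on the recovered fragments. The members and lists were chosen with earlier results of these data known. Values in every library are given, per role, for the most abundant member, the 3 largest called changes and every change of at least 1, and for further members chosen after their values were seen. From each list of related genes the 3 largest called changes are named, except 1 that is not reported here. Positions were taken from RefSeq by symbol for 52 members. No sequences were used here.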

Additional observations from a re-analysis of the deposited data

How the results depend on the processing

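The counts of members that fell (18) and rose (6) stayed within 1.5 times under the alternatives, except for those that fell under median-ratio scaling (11, with 9 higher). The median log2 change of the members tested was -0.219 in the values as deposited. It was -0.063 after median-ratio scaling, -0.098 after quantile normalization and between -0.249 and -0.163 elsewhere. The median of all genes tested was -0.157 as deposited, -0.006 after median-ratio scaling and -0.036 after quantile normalization. Quantile normalization moved single members both ways, such as TFRC from -0.345 to -0.393 and TXNRD2 from 0.058 to 0.228. Without one library each, between 14 and 18 members fell, between 5 and 8 rose, the median lay between -0.229 and -0.171 and between 4881 and 7268 of all genes passed. Scaling moved the share of calls that were higher, over all genes, from 32.4% to 51.8% (median-ratio) and 46.2% (quantile).

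Directions turned only in members that were not called, and the cause was not tested. Under median-ratio scaling they were GPX8 (0.026), TXNL1 (0.132), TXN2 (0.141), PRDX1 (0.071) and NFE2L2 (0.077), and under quantile normalization KEAP1 (0.036). Leaving out single libraries, SELENOS ranged from -0.113 (without NC24h replicate 6) to 0.122, with -0.014 without NC36h replicate 4, and TXN2 from -0.106 to 0.045 (without NC24h replicate 6). CAT, SELENON, SELENOF, SELENOM, PRDX3, SRXN1, GSTO1, GSTA4, GSTZ1, GCLC, NFE2L1, HIF1A and EGLN3 kept their direction and call in all 14 alternatives, and NQO1 and NOX4 in the 13 that tested them.

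The numbers 4, 5 and 6 occur in both groups. Deviations from the group mean correlated across genes at 0.15, -0.02 and 0.18 between libraries of one number. Between libraries of different numbers the values ran from -0.20 to 0.10. Deviations of 3 libraries from their own mean are not independent, so these values do not settle whether the numbers mark pairs. Libraries of one number were treated as unpaired. With the replicate block 7034 of all genes and 24 members were called, 6 higher and 18 lower, with GSS lost (limma adjusted p = 0.0748) and TFRC gained (0.0325). Some members rest on few fragments. The lowest library held 28 for GSTO2, 30 for NOX4, 79 for NQO1, 89 for SELENOM, 92 for EPAS1 and 94 for GSTCD. In addition, 3 libraries per group limit the precision throughout.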
